A study of Homo sapiens with 25 samples.

Results

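DND-41 cells grown for 6 days in medium without histidine were compared with the same cells grown in medium holding 12.5% of the histidine, 3 libraries against 3, which are 6 of the 25 libraries of the study. DND-41 is an established human line derived from T-cell acute lymphoblastic leukaemia, and no other agent or genetic change is named for any group. Titles placed the libraries in groups. For no-histidine replicate 1 the title says day 6 but its time field says day 9, and counts that rest on it are also given without it. The other groups hold 100%, 50% and 25% histidine on day 6 and 4 further levels on day 9, and of these the 3 day 6 libraries at 100% are quoted as a reference level. The comparison asks what separates a complete lack of histidine from a severe limitation. Whether the replicates came from separate cultures is not stated, so the p-values reflect a variation between libraries that may be technical.

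Human cells cannot make histidine and must take it up. Histidyl-tRNA synthetase, HARS1, loads it onto its tRNA, and an uncharged tRNA activates the kinase GCN2, which raises translation of the transcription factor ATF4 and through it of genes for amino acid supply and stress. A separate branch, the Rag GTPases on the lysosome, passes amino acid supply to the kinase mTORC1, which drives ribosome production, lipid synthesis and growth. DND-41 cells are driven by NOTCH1 and the homeobox factor TLX3, and they are arrested at an early thymocyte stage at which the RAG recombinase is expressed.

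Values are normalized counts per gene. A change is the difference between the group means of log2(normalized count + 1), no histidine minus 12.5%, ± its standard error, from limma's moderated test with Benjamini-Hochberg adjustment over all 18799 genes tested and a threshold of 0.05. A gene "rose" or "fell" only if it passed that threshold, higher or lower without histidine. This scale understates the changes of low genes. Library totals of normalized counts ran from 13.6 M to 15.0 M in the 6 libraries. Within a group the libraries correlated at 0.966 to 0.970 in log2 counts, and across the groups at 0.957 to 0.962. Of 14 markers of the line 13 were tested, and PTCRA, part of the pre-T cell receptor, was near 0 in all 6 libraries. The summed level of the markers of the line was 70612 to 81277 without histidine and 89128 to 95212 at 12.5%, and RAG1, 1 of these markers, was at 11901 ± 1156 and 24349 ± 1248 (SD, n = 3 each). Epithelial markers summed to 8.26 to 33.8 without histidine and 34.1 to 100.1 at 12.5%, with KRT7 and KRT5 at 0. Myeloid markers summed to at most 54.2 in any of the 6, with S100A9 at 0. B-cell markers were led by CD79A, EBF1 and BLK, which the line expresses, while PAX5 was near 0. Of the fibroblast markers PDGFRB was expressed and COL1A2 was at 0.

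Without histidine the mitotic, replication and DNA repair genes were lower, and genes of ribosome production, protein folding and lysosomal amino acid sensing were in part higher. In all 2869 genes differed from 12.5% histidine, which is 15.3% of the genes tested. Of these 1316 rose (7.00% of the genes tested) and 1553 fell (8.26%). The falls were the larger ones, since 393 of them but only 116 of the rises exceeded 1 on the log2 scale, while the median over all genes tested was -0.01. In 2467 genes (13.1%) every library without histidine lay above every library at 12.5%, and in 3012 genes (16.0%) every one lay below. Counts of list members given below stand beside these shares of all genes tested. The rises depended on single libraries: 644 without no-histidine replicate 3, 690 without no-histidine replicate 2, 753 without 12.5% replicate 2 and 828 without 12.5% replicate 1. The corresponding numbers of falls were 1106, 1219, 1093 and 1304. Leaving out no-histidine replicate 1, the library with 2 day labels, gave 1678 rises and 1631 falls. Gene length and base composition moved with the direction of change. The longest transcript had a median of 4348 bases and 45.0% GC in genes that fell, 2732.5 bases and 55.1% GC in genes that rose, and 2955 bases and 48.3% GC in all genes tested. Once the dependence on length and GC was removed, a choice made after seeing the data, 1597 genes rose and 1572 fell. The part of fragment length or RNA quality in this was not tested. In gene lists of which no member rose, or none fell, limma's unadjusted p under 0.05 gave no member in that direction either, apart from 1 lower translation factor, 2 lower genes of oxidative phosphorylation, 1 lower erythroid marker, 1 higher and 1 lower gene of sterol efflux and the lists for which a count is given. Calls that were lost when a library was left out are given with the adjusted p without it. A fit of only the 6 compared libraries kept 1151 of the 2869 calls in the same direction. Most calls that it ended are not marked one by one below. Among these are CDKN1A, TYMS, TLX3, MSMO1, LAMTOR1, FARSA, EIF4A2, EEF1B2, SEC61B, SDF2L1, HSPA8, NDUFB7, NEU1, ID3 and CD83.

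**Figure D1:**
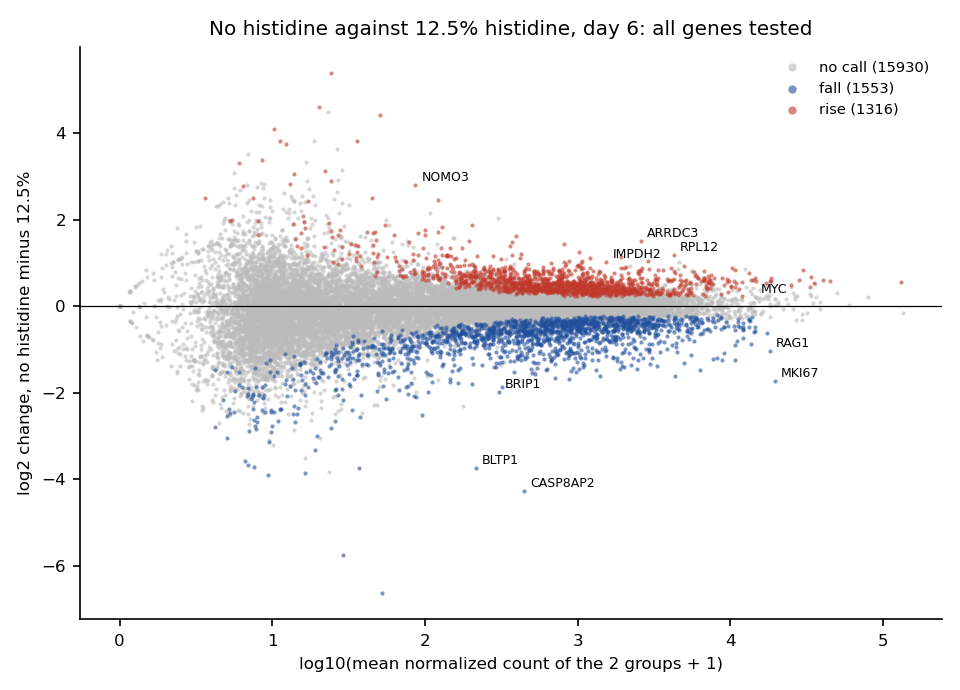
Log2 change without histidine against 12.5% histidine on day 6 (y axis) over the mean normalized count of both groups (x axis, log10 scale) for 18799 genes, with the 1316 rises in red, the 1553 falls in blue and genes that did not pass the threshold in grey. More falls than rises exceed 1 on the log2 scale, 393 against 116. Labelled genes include the falls MKI67 at -1.73 and RAG1 at -1.04 and the rises ARRDC3 at 1.51 and RPL12 at 1.19.

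Among the 12 largest falls, those of genes at moderate levels that did not overlap between groups, were genes of DNA repair, B-lineage transcription and cell adhesion. POU2AF1, a coactivator of octamer-binding transcription factors, stood at 135, 129 and 146 normalized counts without histidine and at 477, 518 and 497 at 12.5%. Its replicates were tight in both groups, and it fell by 1.86 on the log2 scale (SE 0.09, adjusted p = 1.98e-12). CASP8AP2, known as FLASH, which acts in the processing of histone transcripts and in apoptosis, was measured at 1.05, 239 and 126 against 746, 798 and 746 (log2 change -4.27 ± 1.01, adjusted p = 0.00533). All 3 values at 12.5% were close together, and no-histidine replicate 1 was almost at 0. RGS12, a regulator of G-protein signalling, held 35.6, 34.0 and 25.2 against 134, 133 and 140.3 (log2 change -2.08 ± 0.21, adjusted p = 1.38e-07). DSCAML1, a cell adhesion molecule, held 35.8, 48.9 and 38.9 against 169, 162 and 164 (log2 change -1.99 ± 0.24, adjusted p = 2.4e-06). In both genes the groups were far apart and the replicates close together. PHLDB2 changed by -2.52, ST3GAL6, a sialyltransferase, by -2.56, NEURL1B, a ubiquitin ligase of Notch ligands, by -2.10, MYH15 by -1.94 and C1QL1 by -1.88, all of them falls past the threshold. BRIP1 is described with DNA repair. BLTP1 at 191, 71.9 and 0 against 508, 256 and 253 and SPEG at 6.64, 38.2 and 69.8 against 109.5, 90.0 and 143 rested on single libraries. For BLTP1 the adjusted p of 0.0307 became 0.268 without no-histidine replicate 3, 0.106 without 12.5% replicate 1 and 0.0676 without 12.5% replicate 2. For SPEG it went from 0.00979 to 0.0596 without no-histidine replicate 1. With only the 6 compared libraries fitted, limma's adjusted p was 0.155 for CASP8AP2 and 0.140 for ST3GAL6, so these calls were lost as well.

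The 12 largest rises were mostly of low genes, and 5 of them were replication-dependent histone genes. ACY1, an aminoacylase that frees amino acids from their acetylated forms, held 78.8, 80.7 and 59.8 normalized counts without histidine and 5.02, 12.8 and 25.6 at 12.5% (log2 change 2.49 ± 0.37, adjusted p = 5.26e-05). The groups were far apart, with the level at 100% at 128 ± 27.1 (SD, n = 3). ERVFRD-1, the endogenous retroviral envelope protein syncytin-2, held 92.7, 75.0 and 86.1 against 25.4, 22.5 and 19.1 (log2 change 1.88 ± 0.31, adjusted p = 0.000147). DCAF4L1 held 115, 90.4 and 73.0 against 46.7, 21.4 and 23.3 (log2 change 1.64 ± 0.35, adjusted p = 0.00206). Again the groups did not overlap in either gene. NOMO3 had the largest fitted rise of the 12, with 35.2, 140.4 and 281 against 14.4, 7.46 and 32.0 (log2 change 2.80 ± 0.70, adjusted p = 0.00747), but its sequence is nearly identical to that of NOMO1 and NOMO2, so the split of reads among them is uncertain. Summed over the 3 copies, the level was 4254, 4733 and 4841 without histidine and 3615, 3842 and 3899 at 12.5%. The sum was thus higher in each library without histidine, by far less than NOMO3 alone. CHKB, a choline kinase, held 62.3, 72.6 and 67.5 against 20.3, 7.89 and 46.4, but together with the readthrough gene CHKB-CPT1B, which shares its exons, the sums were 418, 351 and 425 against 474, 358 and 309 and overlapped. PRMT7, an arginine methyltransferase, rose with an adjusted p of 0.0232 that became 0.0721 and 0.0690 without no-histidine replicates 2 and 3 and 0.171 without 12.5% replicate 2. LINC00861 rose with 0.0108, which became 0.0600 without no-histidine replicate 1 and 0.0503 without 12.5% replicate 3. The calls of NOMO3 (0.0695 without no-histidine replicate 3, 0.0567 without 12.5% replicate 2), H2BC18 (0.0555 and 0.116 in the same order) and CHKB (0.0932 without 12.5% replicate 2) were lost in the same way.

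Genes of mitosis were lower without histidine almost throughout. The list of G2 and mitosis genes held 45 tested members, of which 44 fell and none rose, beside 8.26% falls among all genes tested, and the median change was -1.08. Only CCNB1 did not pass the threshold. MKI67, the proliferation antigen Ki-67, stood at 11240, 8219 and 7828 normalized counts without histidine and at 29879, 32096 and 27390 at 12.5%, so that the highest library of the first group held fewer than any of the second (log2 change -1.73 ± 0.15, adjusted p = 1.09e-08). ASPM, a spindle pole protein, held 2701, 1959 and 1825 against 6603, 6850 and 6141 (log2 change -1.61 ± 0.13, adjusted p = 5.05e-09). CENPF, a kinetochore protein, held 4205, 3219 and 2721 against 9667, 9599 and 8542 (log2 change -1.48 ± 0.14, adjusted p = 4.18e-08). In all 3 genes no-histidine replicate 1 was the highest of its group and still far below the lowest 12.5% library. CDC25C, the phosphatase that starts mitosis, held 69.4, 89.1 and 98.6 against 205, 224 and 288 (log2 change -1.47 ± 0.15, adjusted p = 3.32e-07). The master regulators were among the falls, the transcription factors MYBL2 at -1.25 and FOXM1 at -1.05, the kinases CDK1 at -1.08, AURKA at -1.03 and PLK1 at -0.84, and cyclin A2, CCNA2, at -1.40. All 44 had no overlap between the groups, beside 16.0% of all genes tested that were lower without overlap. The count of falls was 44 or 45 whichever of the 6 libraries was left out, and it was 44 with the length and GC trend removed. From bulk RNA, fewer cells in mitosis and less mitotic RNA in each cell cannot be told apart.

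Many promoters of mitotic genes share a pair of sequence elements, the cell cycle genes homology region, which the DREAM repressor complex and its activating counterpart bind, and the CCAAT box, bound by NF-Y. Promoter sequence from RefSeq on GRCh38.p14, from 250 bases before to 50 after each start, was found for 39 of the 45 members. The letters TTTGAA, on either strand, stood in 29 of these 39 (74.4%) and in 15.4% of all 27305 promoters of that length. CCAAT, on either strand, stood in 30 of the 39 (76.9%) and in 35.7% of all promoters. Both elements overlap by a base in MKI67, and a match is a description of letters, not a binding site. Such genes are known as targets of these factors, so the share describes the list rather than the comparison. The promoters of the 3 largest falls that hold both elements are shown 5' to 3' in the direction of the gene, with TTTGAA and CCAAT and their reverse complements in capitals. MKI67 lies at chr10:128126374-128126673 on the minus strand, ASPM at chr1:197146620-197146919 on the minus strand and CENPF at chr1:214602945-214603244 on the plus strand.
MKI67: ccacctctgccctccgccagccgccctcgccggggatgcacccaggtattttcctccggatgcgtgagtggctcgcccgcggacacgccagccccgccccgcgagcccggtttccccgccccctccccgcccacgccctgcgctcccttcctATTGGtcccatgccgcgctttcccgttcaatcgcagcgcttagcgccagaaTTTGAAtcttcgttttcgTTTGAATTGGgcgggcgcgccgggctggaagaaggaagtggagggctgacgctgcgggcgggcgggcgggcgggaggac
ASPM: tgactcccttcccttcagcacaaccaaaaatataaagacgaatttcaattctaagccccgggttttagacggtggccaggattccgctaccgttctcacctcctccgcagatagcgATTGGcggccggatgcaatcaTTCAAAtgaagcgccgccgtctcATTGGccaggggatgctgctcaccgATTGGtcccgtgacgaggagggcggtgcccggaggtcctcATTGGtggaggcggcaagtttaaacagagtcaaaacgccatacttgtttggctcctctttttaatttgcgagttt
CENPF: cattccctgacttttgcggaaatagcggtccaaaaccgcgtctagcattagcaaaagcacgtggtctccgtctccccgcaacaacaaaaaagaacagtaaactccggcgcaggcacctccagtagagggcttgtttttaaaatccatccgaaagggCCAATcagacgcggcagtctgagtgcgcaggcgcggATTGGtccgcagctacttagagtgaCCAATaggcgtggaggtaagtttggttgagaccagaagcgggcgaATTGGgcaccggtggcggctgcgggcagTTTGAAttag

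Genes of the G1/S transition and of DNA replication were lower as well. Of 46 tested members 37 fell and none rose, beside 8.26% falls among all genes tested, with a median change of -0.76. The same 37 had no overlap between the groups, beside 16.0% of all genes tested that were lower without overlap. E2F2, a transcription factor of S-phase entry, stood at 1291, 1399 and 1243 normalized counts without histidine and at 3256, 3860 and 3653 at 12.5% (log2 change -1.45 ± 0.08, adjusted p = 2.72e-11). CLSPN, the checkpoint adaptor claspin, held 1253, 1287 and 1203 against 3197, 3389 and 3043 (log2 change -1.36 ± 0.10, adjusted p = 7.31e-10). MCM10, which acts in activating the replicative helicase, and ORC6, a subunit of the origin recognition complex, held 619, 663 and 570.5 against 1410, 1653 and 1532 and 187, 307 and 234 against 466, 564 and 632. In all 4 genes the 2 groups were separated by a wide gap. Of the helicase subunits MCM3 changed by -0.41, MCM4 by -0.45 and MCM7 by -0.52, all falls, whereas MCM2 (-0.19, adjusted p = 0.214), MCM5 (-0.10, adjusted p = 0.587) and MCM6 (-0.23, adjusted p = 0.167) did not pass. MCM2 was measured at 2377, 2870 and 2587 without histidine, 2748, 3030 and 3132 at 12.5% and 9385 ± 493 (SD, n = 3) at 100%, so it was already low at 12.5%. GINS2, POLA2, PRIM1, RPA2, RRM2 and DUT were the other members that did not pass. The E2F element occurred in these promoters as TTTCCCGC in 11 of 39 (28.2%, against 1.66% of all promoters) and as TTTGGCGC in 10 of 39 (25.6%, against 0.659%), on either strand.

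DNA repair by homologous recombination and the Fanconi pathway followed. Of 22 tested members 18 fell and none rose, beside 8.26% falls among all genes tested, with a median of -0.80. BRIP1, the helicase partner of BRCA1, stood at 135, 121 and 105 normalized counts against 399.9, 575 and 477 (log2 change -1.99 ± 0.22, adjusted p = 5.42e-07), the largest change of the list. BRCA2, a mediator of strand exchange at broken DNA, held 466, 339.7 and 238 against 1022, 1139 and 1022 (log2 change -1.66 ± 0.16, adjusted p = 9.55e-08). EXO1, an end-resecting exonuclease, held 338, 281 and 322 against 778, 752 and 806 (log2 change -1.31 ± 0.08, adjusted p = 1.27e-10). MND1, an accessory factor of strand exchange, held 165, 163 and 227 against 359, 467 and 534 (log2 change -1.28 ± 0.15, adjusted p = 2.25e-06). In each of these genes all libraries without histidine lay below all at 12.5%. BRCA1 changed by -0.77 and FANCD2 by -0.82, both falls, and PALB2, XRCC3, FANCC and FANCL did not pass. Between 15 and 18 members fell when any of the 6 libraries was left out.

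**Figure D2:**
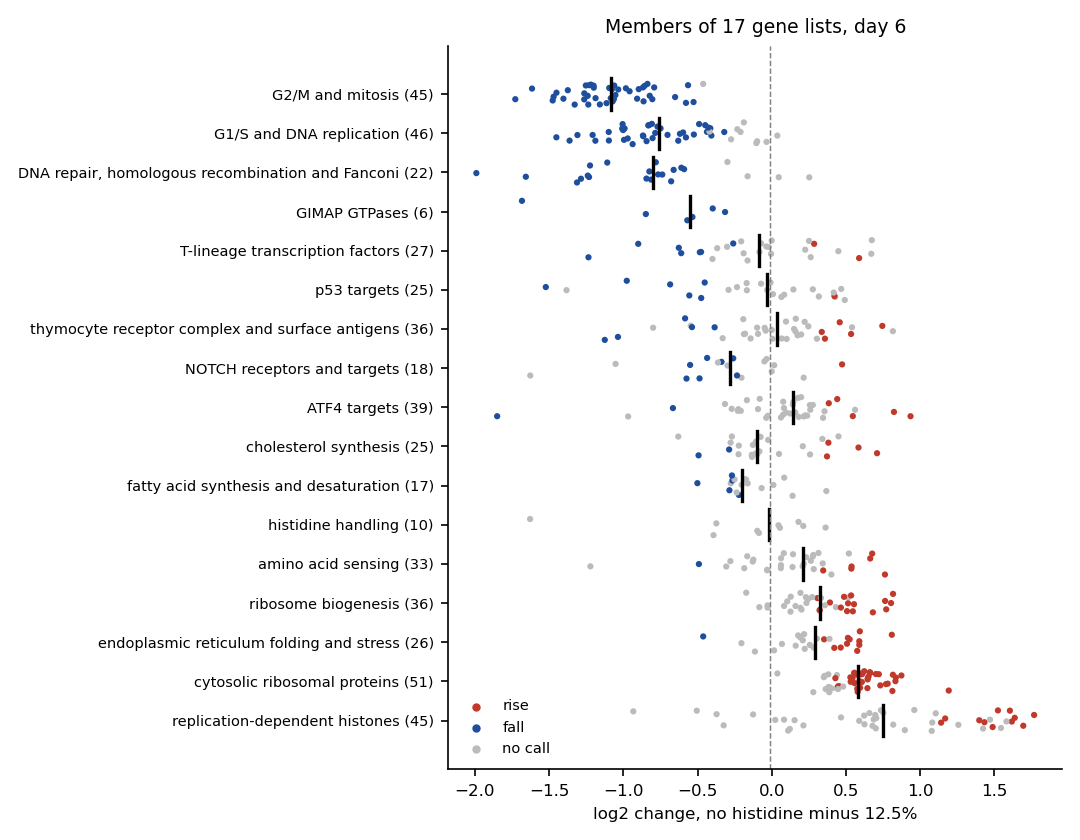
Log2 change without histidine against 12.5% histidine (x axis) of each tested member of 17 gene lists (y axis, with the number tested), coloured red for rises, blue for falls and grey where the threshold was not passed; black bars are list medians and the dashed line is the median of all genes, -0.01. The cell cycle and repair lists lie to the left, with medians of -1.08, -0.76 and -0.80, and the ribosomal protein and histone lists to the right, with medians of 0.58 and 0.75.

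Several inhibitors of the cell cycle were lower without histidine too. A list of D-type cyclins, CDK4/6 and CDK inhibitors, which also holds the pocket protein RBL1, had 14 tested members, of which 5 fell and 1 rose. CDKN1A, the inhibitor p21, held 180.1, 191 and 209 normalized counts without histidine and 274, 275 and 398 at 12.5% (log2 change -0.68 ± 0.13, adjusted p = 0.000931), and 614 ± 38.4 (SD, n = 3) at 100%. CDKN2C, the CDK4/6 inhibitor p18, held 3867, 4347 and 4334 against 5338, 6502 and 6800 (log2 change -0.57 ± 0.11, adjusted p = 0.000591). RBL1, the pocket protein p107, held 914, 896 and 802 against 1660, 1734 and 1856 (log2 change -1.01 ± 0.09, adjusted p = 4.36e-08). All 3 were lower in each library without histidine. CDKN1B, the inhibitor p27, did not pass (-0.14, adjusted p = 0.331), and CDK4 rose by 0.54, a call lost without no-histidine replicate 2 or 3 (0.123 and 0.131) or 12.5% replicate 1 or 2 (0.179 and 0.100). CDKN2D also fell (-0.57, adjusted p = 0.0159), a call lost without no-histidine replicate 1 (0.0554), 12.5% replicate 2 (0.0829) or 12.5% replicate 3 (0.0690). CCND2 was erratic, at 17.9, 148 and 131 against 161, 83.2 and 67.7.

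Of 25 tested targets of the tumour suppressor p53 6 fell and 1 rose, beside 8.26% and 7.00% of all genes tested. The other 18 did not pass, and the median was -0.03. DDB2, a DNA damage recognition protein, held 160.4, 162 and 206 normalized counts without histidine and 323, 371 and 343 at 12.5% (log2 change -0.98 ± 0.12, adjusted p = 2.45e-06). GADD45A, a growth arrest protein, held 548, 571 and 499 against 707, 788 and 891 (log2 change -0.56 ± 0.10, adjusted p = 0.00049). In both genes the 2 groups were apart. MDM2, the ubiquitin ligase of p53, changed by -0.48 and POLH by -0.45, both falls, and TP53INP1 rose by 0.42. The call of MDM2 was lost without no-histidine replicate 3 (0.0638), and that of TP53INP1 without no-histidine replicate 1, 2 or 3 (0.0608, 0.135 and 0.0722) or 12.5% replicate 1, 2 or 3 (0.0773, 0.130 and 0.0593). FAS, a death receptor, fell (-1.52, adjusted p = 0.00992), which became 0.0560 without no-histidine replicate 1. Of 13 tested members of the BCL2 family 3 rose (1 without no-histidine replicate 2 or 3 or 12.5% replicate 1) and none fell, with 1 lower at limma's unadjusted p under 0.05. Among the rises BCL2L1, the survival factor BCL-XL, went from 5833 ± 319 to 7970 ± 759 (SD, n = 3 each). Its log2 change was 0.45 ± 0.08 (limma's adjusted p = 0.000256). The other rises were larger, BAD at 0.66 (adjusted p = 0.0108) and BID at 0.56 (adjusted p = 0.0371). The call of BAD was lost without no-histidine replicate 2 or 3 (0.0558 and 0.0608) or 12.5% replicate 1 (0.0810). That of BID was lost without no-histidine replicate 2 or 3 (0.101 and 0.198) or 12.5% replicate 1 or 2 (0.175 and 0.124).

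Some replication-dependent histone genes were higher without histidine. Replication-dependent histone transcripts end in a stem-loop and lack a poly(A) tail, and they normally peak in S phase. Of 45 tested genes 11 rose and none fell, beside 7.00% rises among all genes tested, with a median of 0.75. In 26 every library without histidine lay above every one at 12.5%, beside 13.1% of all genes tested. At an unadjusted p under 0.05 limma gave 19 higher and 1 lower. The rises numbered 7 without no-histidine replicate 3 and 8 to 10 without any other library. H2BC5 stood at 576, 541 and 653 normalized counts without histidine and at 218, 189 and 169 at 12.5% (log2 change 1.62 ± 0.17, adjusted p = 5.18e-07). H2AC15 held 152, 147 and 160.3 against 38.2, 65.3 and 34.7 (log2 change 1.77 ± 0.42, adjusted p = 0.00529), H2BC9 held 163, 119 and 128 against 48.3, 31.5 and 46.1 (log2 change 1.69 ± 0.33, adjusted p = 0.000864) and H3C10 held 143, 146 and 157 against 43.7, 62.1 and 38.6 (log2 change 1.64 ± 0.35, adjusted p = 0.00216). In these 4 genes the lowest library without histidine was above the highest at 12.5%. H4C3 gave 122, 134 and 222 against 118, 162 and 182, where the groups overlapped and the fitted change, 0.02, was -0.91 with 5.8S rRNA as a covariate. Histone genes have near-identical coding sequences within a family, so the assignment of reads among them is uncertain. Another RNA without a tail, 5.8S rRNA, was at 242, 121 and 119.6 without histidine and at 88.2, 79.8 and 74.8 at 12.5%. With the level of 5.8S rRNA as a covariate the histone median was 0.30, with 10 rises and 1 fall. Of 13 other tested RNAs without tails none passed limma's test, 3 had an unadjusted p under 0.05, and the median was 0.91. Their sums overlapped between the groups, unlike 5.8S rRNA, at 3619, 9678.5 and 16887 without histidine and 4270, 3701 and 4665 at 12.5%. The part of library preparation, such as any tail selection, in the histone difference was not tested.

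Genes of the protein synthesis machinery leaned upward, but the libraries disagreed. Of 51 cytosolic ribosomal protein genes 38 rose and none fell, with a median of 0.58, yet only 4 had no overlap between the groups, against 13.1% of all genes tested. The member medians, as deviations from each gene's mean over the 6 libraries, were -0.10, 0.40 and 0.58 in the libraries without histidine and -0.60, -0.38 and 0.12 at 12.5%. No-histidine replicate 1 thus lay below 12.5% replicate 3. Without no-histidine replicate 1 the number of rises was 50, and without 12.5% replicate 3 it was 49. It was 11 without no-histidine replicate 2, 7 without no-histidine replicate 3, 8 without 12.5% replicate 1 and 10 without 12.5% replicate 2. The members that separated the groups included RPL12, at 4714, 6176 and 6951 normalized counts against 2401, 2331 and 3026 (log2 change 1.19 ± 0.15, adjusted p = 5.68e-06), and RPL3, at 31968, 41385 and 41026 against 18699, 19948 and 25711 (log2 change 0.83 ± 0.12, adjusted p = 3.29e-05). RPS2, at 9547, 15119 and 16954 against 5926, 7426 and 9767, overlapped by its lowest value without histidine. RPS9 overlapped likewise, at 9217, 14032 and 16726 against 5478, 6807 and 9427.

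Counts of rises depended on the same libraries in other lists, and they stand beside 7.00% rises among all genes tested. Translation factors gave 8 rises of 34 tested members, with 14 without no-histidine replicate 1, 11 without 12.5% replicate 3 and 4 or 5 without any of the other 4. The elongation factor EEF1B2 held 3870, 5525 and 6398 normalized counts against 2319, 2518 and 3748 (log2 change 0.88 ± 0.17, adjusted p = 0.0011), and the initiation factor EIF4A2 held 1113, 1515 and 1646 against 548, 569.7 and 1000 (log2 change 1.05 ± 0.19, adjusted p = 0.000454). Both separated the groups, with 12.5% replicate 3 the highest of its group. Nuclear genes of oxidative phosphorylation gave 5 rises of 39 (1 without no-histidine replicate 2 or 3 or 12.5% replicate 1 or 2, and 13 without no-histidine replicate 1 or 12.5% replicate 3). Proteasome subunits gave 7 of 33 (2 without each of the same 4 libraries, and 11 without either of the other 2). Hosts of small nucleolar RNAs gave 8 of 17, and 2 without no-histidine replicate 2 or 3, 4 without 12.5% replicate 1, 1 without 12.5% replicate 2 and 6 or 7 without the others. NDUFB7, a complex I subunit, was at 524, 725 and 830.2 against 322, 394 and 499 (log2 change 0.77 ± 0.17, adjusted p = 0.00262). None of the 13 mitochondrially encoded genes passed limma's test, and 2 had an unadjusted p under 0.05.

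**Figure D3:**
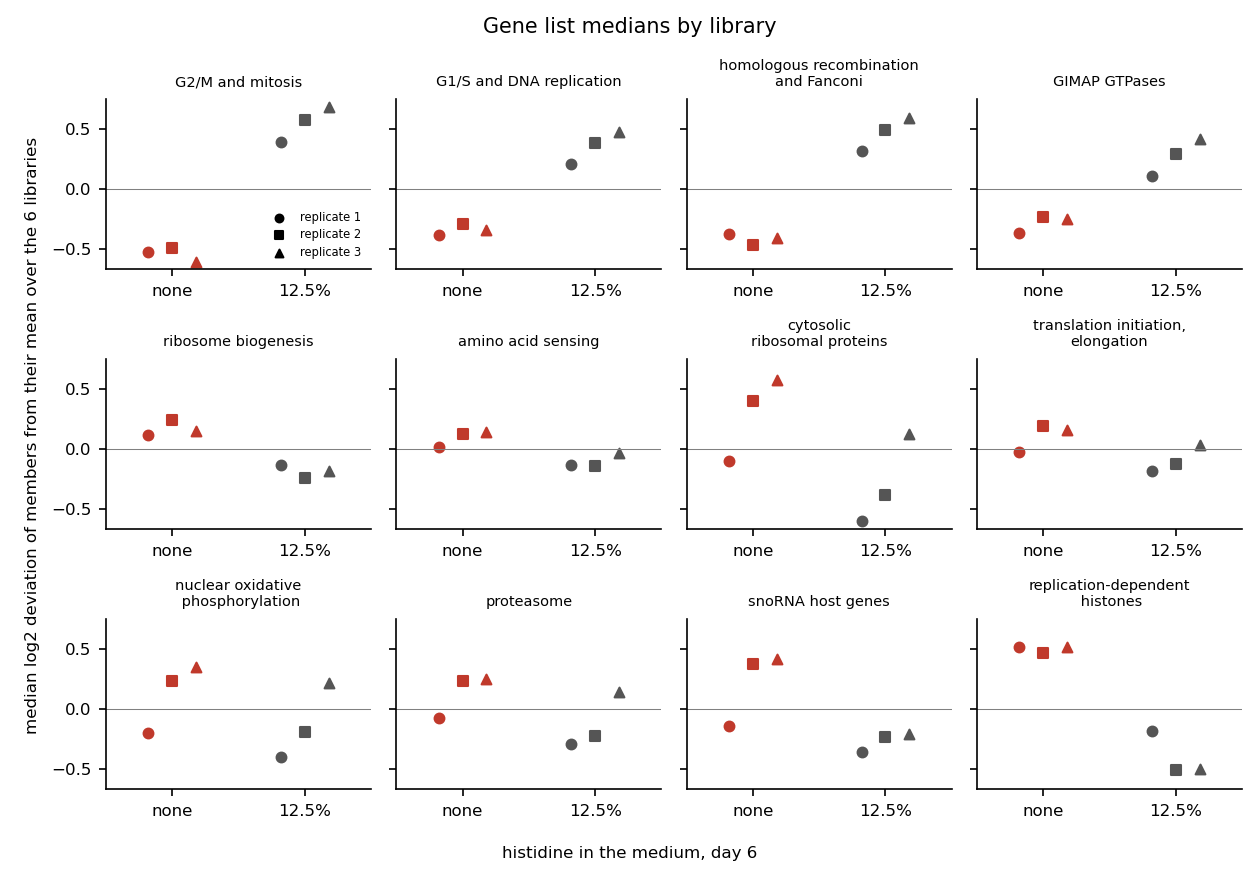
Median log2 deviation of list members from their mean over the 6 libraries (y axis) for 12 gene lists, in the 3 libraries without histidine (red) and the 3 at 12.5% (grey); marker shapes are replicate numbers and each panel has its list's name. The groups are apart in the cell cycle, repair, GIMAP, ribosome biogenesis and histone panels, while no-histidine replicate 1 at -0.10 lies below 12.5% replicate 3 at 0.12 in the ribosomal protein panel.

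Ribosome biogenesis, the making of ribosomes in the nucleolus, separated the groups better than the ribosomal proteins. Of 36 tested members 15 rose and none fell, beside 7.00% rises among all genes tested, with a median of 0.32. In 22 every library without histidine lay above every one at 12.5%, beside 13.1% of all genes tested. BOP1, a factor of large subunit processing, held 2573, 3432 and 3349 normalized counts without histidine and 1689, 1842 and 1909 at 12.5% (log2 change 0.77 ± 0.12, adjusted p = 5.92e-05). RRP9, a component of the small subunit processome, held 932, 1100 and 968 against 597, 560.2 and 556 (log2 change 0.80 ± 0.14, adjusted p = 0.00029). In both genes every library without histidine was above every one at 12.5%. RRP12 rose by 0.68. The RNA polymerase I subunits POLR1G (0.82) and POLR1C (0.76) rose in limma's test, with adjusted p of 0.0112 and 0.0101. The call of POLR1G was lost without 12.5% replicate 2 or 3 (0.0554 and 0.0619). That of POLR1C was lost without no-histidine replicate 3 (0.0682) or 12.5% replicate 2 (0.0788). The subunits POLR1A and POLR1B did not pass, nor did NPM1, NCL and FBL, the most abundant nucleolar proteins. Leaving out a library gave 8 to 14 rises, the fewest without 12.5% replicate 2.

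Some genes of protein folding in the endoplasmic reticulum were higher without histidine. Of 26 tested members 11 rose and 1, EDEM1 (-0.46), fell, with a median of 0.29. SEC61B, part of the channel into the endoplasmic reticulum, held 578, 773 and 903 normalized counts against 327, 442 and 517 (log2 change 0.81 ± 0.16, adjusted p = 0.00113). CALR, the lectin chaperone calreticulin, held 10724, 13665 and 13465 against 7828, 8327 and 8873 (log2 change 0.59 ± 0.12, adjusted p = 0.00135), and SDF2L1, a chaperone cofactor, held 447, 639 and 648 against 328, 391 and 423 (log2 change 0.59 ± 0.14, adjusted p = 0.00535). All 3 separated the groups, with no-histidine replicate 1 the lowest of its group. HSPA5, the main chaperone BiP, rose by 0.58 and HERPUD1 by 0.51. The sensors ATF6 and ERN1 did not pass. Leaving out a library gave 7 to 12 rises, 7 without no-histidine replicate 2 or 3. Of 18 cytosolic and mitochondrial heat shock genes 3 rose, beside 7.00% rises among all genes tested. HSPA8, the constitutive chaperone HSC70, held 28256, 37109 and 36935 against 20332, 20384 and 26735 (log2 change 0.60 ± 0.13, adjusted p = 0.00297), HSP90AB1 held 26628, 31249 and 29961 against 20805, 19848 and 21591 (log2 change 0.49 ± 0.13, adjusted p = 0.00866) and HSPE1, the mitochondrial co-chaperonin, held 1708, 2093 and 2277 against 1178, 1187 and 1434 (log2 change 0.67 ± 0.14, adjusted p = 0.00149).

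Genes that handle histidine itself, its synthetases, transporters, breakdown enzymes and methyltransferases, gave no call. None of 10 tested members passed limma's test, 4 had an unadjusted p under 0.05, and the median was -0.02. HARS1 stood at 904, 1035 and 991 normalized counts without histidine and at 843, 825 and 915 at 12.5% (log2 change 0.18 ± 0.09, adjusted p = 0.189), so that the groups overlapped. The nearest to the threshold was SLC15A4, a lysosomal histidine transporter (log2 change 0.36 ± 0.13, adjusted p = 0.0587).

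Of 39 tested targets of ATF4 5 rose and 2 fell, beside 7.00% and 8.26% of all genes tested, and 32 did not pass. Their median was 0.14. DDIT3, the stress transcription factor CHOP, stood at 646, 651 and 683 normalized counts without histidine and at 405, 367 and 347 at 12.5% (log2 change 0.82 ± 0.11, adjusted p = 1.61e-05), and at 636 ± 34.2 (SD, n = 3) at 100%. TRIB3, a pseudokinase that dampens ATF4, held 5392, 6815 and 7034 against 3986, 4387 and 4745 (log2 change 0.55 ± 0.11, adjusted p = 0.00108), and 10342 ± 291 at 100%. Both genes were thus lower at 12.5% than at 100% and higher again without histidine. CREBRF, an inhibitor of the stress factor CREB3, held 1186, 974 and 1069 against 538, 573 and 572 (log2 change 0.94 ± 0.19, adjusted p = 0.00126), with 323 ± 15.9 at 100%. CEBPB rose by 0.38 and the glycine transporter SLC6A9 by 0.44, while PSAT1 and GPT2, enzymes that make serine and alanine, changed by -0.67 and -1.85. The call of SLC6A9 was lost without no-histidine replicate 2 (0.181) or 3 (0.0953) or 12.5% replicate 1 (0.108) or 2 (0.0886). That of PSAT1 was lost without no-histidine replicate 1 (0.0689) or 2 (0.0959) or 12.5% replicate 2 (0.0591) or 3 (0.0967). ATF4 itself was at 17110, 19894 and 19607 against 15134, 14936 and 17300 and missed the threshold (log2 change 0.26 ± 0.09, adjusted p = 0.052). Other targets gave no call. ASNS, asparagine synthetase, was low and scattered at 74.2, 24.7 and 93.4 against 51.8, 86.8 and 74.8 (log2 change -0.31 ± 0.69, adjusted p = 0.827). CHAC1, a glutathione-cleaving enzyme, was at 458, 584 and 630.3 against 489.6, 493 and 516 (log2 change 0.15 ± 0.17, adjusted p = 0.638). SLC7A11, the cystine transporter, was at 2562, 2572 and 2195 against 2386, 2305 and 2240 (log2 change 0.08 ± 0.12, adjusted p = 0.732). The element TGATGNAAT, through which ATF4 binds with C/EBP partners, stood on either strand in 1 of 32 promoters of the list and in 1.02% of all promoters.

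Amino acid transporters and tRNA synthetases moved little. Of 22 tested transporters 2 rose and 1 fell, beside 7.00% and 8.26% of all genes tested, with a median of 0.00. SLC43A2, a carrier of large neutral amino acids, held 901, 1054 and 979 normalized counts without histidine and 662, 698 and 782 at 12.5% (log2 change 0.45 ± 0.11, adjusted p = 0.00619), and its groups did not overlap. SLC7A5, the main carrier of large neutral amino acids, did not pass (log2 change 0.23 ± 0.12, adjusted p = 0.232). Of 20 cytosolic tRNA synthetases 4 rose and none fell, with a median of 0.18. The rises numbered 2 without no-histidine replicate 2 or 3 or 12.5% replicate 2, and 3 to 6 without the others. VARS1, for valine, held 2752, 3457 and 3226 against 1961, 2057 and 1989 (log2 change 0.64 ± 0.12, adjusted p = 0.000591), and FARSA, for phenylalanine, held 1831, 2428 and 2172 against 1422, 1537 and 1615 (log2 change 0.48 ± 0.11, adjusted p = 0.00448). The other rises, WARS1 and IARS1, were smaller (0.34 and 0.34), and single libraries decided them. The adjusted p of WARS1 was 0.0890 without no-histidine replicate 2, 0.0566 without no-histidine replicate 3 and 0.0619 without 12.5% replicate 2. That of IARS1 was 0.160, 0.0550, 0.0573 and 0.126 without no-histidine replicates 2 and 3 and 12.5% replicates 1 and 2.

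The lysosomal machinery that reports amino acids to mTORC1 rose in part. Of 33 tested members 6 rose and 1 fell, beside 7.00% rises among all genes tested, with a median of 0.21. RRAGC, a Rag GTPase, stood at 774, 873 and 868 normalized counts without histidine and at 469, 491 and 520.1 at 12.5% (log2 change 0.76 ± 0.10, adjusted p = 6.86e-06), with 488 ± 34.0 (SD, n = 3) at 100%. Its partner RRAGA held 1001, 1085 and 1088 against 771, 637 and 785 (log2 change 0.54 ± 0.09, adjusted p = 0.000329). FLCN, folliculin, which acts on RRAGC, held 899, 999 and 822 against 645, 512 and 546 (log2 change 0.68 ± 0.12, adjusted p = 0.000483), and LAMTOR1, the membrane anchor of the Rag complex, held 718, 984 and 1153 against 504, 580.1 and 699.9 (log2 change 0.66 ± 0.15, adjusted p = 0.00287). All 4 were higher in each library without histidine. The folliculin partner FNIP1 rose by 0.54, a call lost without no-histidine replicate 1 (0.0550). SEC13 rose by 0.35, a call lost without no-histidine replicate 2 or 3 (0.126 and 0.116) or 12.5% replicate 1 or 2 (0.185 and 0.102). RRAGD, the close relative of RRAGC, fell (-0.49). MTOR and RPTOR did not pass, nor did EIF2AK4, the gene of GCN2 (0.23, adjusted p = 0.174), or the leucine sensor SESN2 (0.28, adjusted p = 0.174). Between 5 and 9 members rose when any of the 6 libraries was left out, 9 without 12.5% replicate 3.

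Lysosome and autophagy genes gave 10 rises of 34 tested members and no fall, with 15 higher and none lower at an unadjusted p under 0.05 in limma's test. CTSD, the protease cathepsin D, held 6033, 8517 and 7835 normalized counts against 4279, 4727 and 5132 (log2 change 0.65 ± 0.11, adjusted p = 0.000127), and NEU1, a sialidase, held 306, 434 and 421 against 181, 201 and 275 (log2 change 0.82 ± 0.20, adjusted p = 0.00663). Both were above all 12.5% libraries. The number of rises was 10 without no-histidine replicate 1, 9 without 12.5% replicate 3, 2 without no-histidine replicate 2 and 3 without each of the other 3 libraries. Antioxidant genes gave 9 rises of 19 and no fall. GPX1, a glutathione peroxidase, held 1116, 1790 and 2044 against 615, 672 and 967 (log2 change 1.12 ± 0.21, adjusted p = 0.000605), FTL, the ferritin light chain, held 5138, 7073 and 7387 against 2947, 3129 and 4097 (log2 change 0.94 ± 0.15, adjusted p = 0.000102) and PRDX1, a peroxiredoxin, held 3334, 4488 and 5170 against 2057, 2255 and 2866 (log2 change 0.85 ± 0.20, adjusted p = 0.00564). These 3 also separated the groups, and no-histidine replicate 1 was the lowest of its group in each. The count was again 9 without no-histidine replicate 1 or 12.5% replicate 3, and 3 or 4 without any of the other 4.

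Lipid synthesis differed little between these media, although the median level of its transcripts was lower in both than at 100% histidine. Of 25 cholesterol genes 4 rose and 2 fell, beside 7.00% and 8.26% of all genes tested, with a median of -0.10. HMGCS1, an early enzyme of the mevalonate pathway, stood at 1090, 1125 and 1106 normalized counts without histidine, 1161, 1194 and 1273 at 12.5% (log2 change -0.13 ± 0.11, adjusted p = 0.491) and 2986 ± 435 (SD, n = 3) at 100%. HMGCS1 did not pass between the 2 low media. The 4 rises were enzymes of the last steps, MSMO1 (log2 change 0.58 ± 0.14, adjusted p = 0.00433), TM7SF2 (0.71), SC5D (0.38) and LSS (0.37), and the falls were SREBF2, the master regulator (-0.29), and STARD4, a sterol carrier (-0.49). The call of SREBF2 was lost without no-histidine replicate 1 or 3 (0.0602 and 0.0626) or 12.5% replicate 2 or 3 (0.0788 and 0.0587). Without no-histidine replicate 3 the adjusted p of TM7SF2 became 0.113 and that of STARD4 0.106. That of SC5D was 0.253 and 0.0670 without no-histidine replicates 2 and 3, and 0.147, 0.113 and 0.0560 without 12.5% replicates 1, 2 and 3. The rises numbered 2 without no-histidine replicate 3. The sterol regulatory element ATCACNCCA, on either strand, was in 1 of 19 promoters of the list and in 0.564% of all promoters.

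Of 17 genes of fatty acid synthesis and desaturation 5 fell and none rose, with a median of -0.20, and limma's unadjusted p under 0.05 gave 7 lower and 1 higher. SREBF1, their transcription factor, held 1741, 1967 and 1710 normalized counts without histidine, 2493, 2681 and 2482 at 12.5% (log2 change -0.50 ± 0.13, adjusted p = 0.00788) and 5335 ± 523 at 100% (SD, n = 3). SCD, the stearoyl-CoA desaturase, held 5246, 5819 and 5186 against 6561, 6289 and 6657 (log2 change -0.26 ± 0.09, adjusted p = 0.0422), and 24568 ± 2230 at 100%. The groups did not overlap, but the small falls of SCD, FADS1 (-0.28) and ELOVL6 (-0.27) were lost when single libraries were left out. The falls numbered 1 without no-histidine replicate 3 or 12.5% replicate 2, 2 without 12.5% replicate 3 and 3 without any of the other 3. For SCD the adjusted p was then 0.0939 and 0.159 without no-histidine replicates 1 and 3, and 0.103, 0.0740 and 0.0957 without 12.5% replicates 1, 2 and 3. For FADS1 it was 0.175 and 0.165 without no-histidine replicates 2 and 3, and 0.129 and 0.142 without 12.5% replicates 1 and 2. For ELOVL6 it was 0.106 and 0.156 without no-histidine replicates 2 and 3, and 0.0697, 0.0811 and 0.0509 without 12.5% replicates 1, 2 and 3.

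Of 30 genes of glycolysis and hypoxia 7 rose and 1 fell, with a median of 0.20. The count of rises was 9 without no-histidine replicate 1, 8 without 12.5% replicate 3, 1 without no-histidine replicate 2 and 2 without any of the other 3.

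Folate and nucleotide metabolism contained larger differences. IMPDH2, the enzyme that commits purines to guanine nucleotides, stood at 1805, 2182 and 2177 normalized counts without histidine and at 980.2, 872 and 1184 at 12.5% (log2 change 1.03 ± 0.13, adjusted p = 8.12e-06), with 2304 ± 203 (SD, n = 3) at 100%. It was the only rise among 13 purine synthesis genes, and 1 low gene, ADSS1, fell (-2.04), a call lost without no-histidine replicate 1 or 2 (0.128 and 0.170) or 12.5% replicate 1 or 2 (0.105 and 0.0784). These purine counts and those of serine and one-carbon genes stand beside 7.00% rises and 8.26% falls among all genes tested. Of 17 serine and one-carbon genes 6 fell and 3 rose, and the list median was -0.04, or 0.049 with estimated library weights. SHMT1, a serine hydroxymethyltransferase, held 279, 311 and 282 against 435, 501 and 571 (log2 change -0.78 ± 0.12, adjusted p = 0.000103) and TYMS, thymidylate synthase, held 2156, 2461 and 2570 against 2987, 3950 and 4977 (log2 change -0.70 ± 0.12, adjusted p = 0.000293). FPGS, which adds glutamate to folates, held 1051, 1474 and 1600 against 716, 816 and 858 (log2 change 0.77 ± 0.12, adjusted p = 8.42e-05). Every library without histidine was lower in the first 2 of these and higher in FPGS. MTHFD1 fell by 0.53 on the log2 scale.

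Receptor components and surface antigens of thymocytes moved in both directions. Of 36 tested members 5 rose and 5 fell, beside 7.00% and 8.26% of all genes tested, and 26 did not pass. Their median was 0.04. RAG1, which cuts receptor genes for recombination, stood at 13130, 11736 and 10836 normalized counts without histidine and at 25645, 24247 and 23155 at 12.5% (log2 change -1.04 ± 0.10, adjusted p = 5.83e-08), with 22593 ± 1059 (SD, n = 3) at 100%. Its partner RAG2 held 456, 489 and 476 against 728, 671 and 734 (log2 change -0.58 ± 0.09, adjusted p = 6.19e-05), and DNTT, which adds untemplated bases at the joins, held 83.2, 107 and 96.5 against 205, 159.7 and 277 (log2 change -1.12 ± 0.18, adjusted p = 0.000104). These 3 genes were apart in all 6 libraries. CD38 (-0.54) and the chemokine receptor CXCR4 (-0.38) were the other falls, the second lost without 12.5% replicate 3 (0.0850). LAT, the scaffold of receptor signalling, held 973, 1173 and 1227 against 599.7, 669.7 and 739.7 and rose (log2 change 0.75 ± 0.17, adjusted p = 0.00302). IL2RG (0.46), CCR9 (0.53), ZAP70 (0.36) and LCK (0.34) rose too. The call of CCR9 was lost without no-histidine replicate 1 or 2 (0.0927 and 0.107) or 12.5% replicate 1, 2 or 3 (0.0841, 0.0670 and 0.0783) and that of LCK without no-histidine replicate 2 or 3 (0.200 and 0.204) or 12.5% replicate 1 or 2 (0.197 and 0.126). The receptor chains CD3D, CD3E, CD3G and CD247 did not pass, nor did CD4, CD5, CD7, CD8A and CD1A. The rises numbered 3 without no-histidine replicate 2 or 12.5% replicate 2.

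The GIMAP family, GTPases of lymphocyte survival encoded side by side, fell together. All 6 of the tested members fell, beside 8.26% falls among all genes tested, with a median of -0.55. None overlapped between the groups, beside 16.0% of all genes tested that were lower without overlap. GIMAP7 held 223, 218 and 255 normalized counts against 415, 381 and 459.8 (log2 change -0.85 ± 0.10, adjusted p = 2.68e-06), GIMAP2 held 546, 599.8 and 573 against 725, 833 and 1014 (log2 change -0.57 ± 0.10, adjusted p = 0.000504) and GIMAP1 held 344, 358 and 369 against 468, 571 and 518 (log2 change -0.53 ± 0.12, adjusted p = 0.0042). In each the highest library without histidine lay below the lowest at 12.5%. GIMAP6 changed by -0.40, and its adjusted p of 0.0103 became 0.0581 without no-histidine replicate 1 and 0.0578 without 12.5% replicate 2. The call of GIMAP5 was lost without no-histidine replicate 1 or 3 (0.173 and 0.0949) or 12.5% replicate 1, 2 or 3 (0.0609, 0.0994 and 0.123). GIMAP8 was low, at 8.42, 14.2 and 16.0 against 38.6, 43.9 and 44.4 (log2 change -1.68 ± 0.26, adjusted p = 8.35e-05). The count of falls was 4 without no-histidine replicate 1 or 12.5% replicate 2.

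Of 27 tested T-lineage transcription factors 7 fell and 2 rose, beside 8.26% and 7.00% of all genes tested, and 18 did not pass. Their median was -0.08. ETS1, a factor of T-cell differentiation, held 4160, 4729 and 4066 normalized counts without histidine and 6284, 6782 and 6900 at 12.5% (log2 change -0.63 ± 0.08, adjusted p = 6e-06). ID3, an inhibitor of E proteins, held 40.3, 46.1 and 68.0 against 90.0, 88.1 and 106 (log2 change -0.90 ± 0.20, adjusted p = 0.00276), and BACH2, a repressor of effector genes, held 399.5, 412 and 348 against 616, 617 and 536 (log2 change -0.61 ± 0.13, adjusted p = 0.00175). TLX3, a homeobox oncogene of this line, held 4478, 5264 and 5614 against 6229, 7612 and 7639 (log2 change -0.48 ± 0.12, adjusted p = 0.0071). All 4 were lower in every library without histidine. RUNX3 held 821, 932 and 983 against 609, 602 and 602 and rose (log2 change 0.59 ± 0.11, adjusted p = 0.00066), and GATA3 rose by 0.29, a call lost without no-histidine replicate 2 or 3 (0.180 and 0.0776) or 12.5% replicate 1 or 2 (0.0767 and 0.0841). TCF7, BCL11B, RUNX1, IKZF1 and MYB were among those that did not pass.

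Receptors and targets of NOTCH gave 7 falls and 1 rise among 18 tested members, with a median of -0.28. DTX1, a ubiquitin ligase and direct target, held 10588, 13075 and 11538 normalized counts without histidine and 16677, 18143 and 17422 at 12.5% (log2 change -0.57 ± 0.11, adjusted p = 0.000589). IL7R, the interleukin 7 receptor, held 5784, 5461 and 5149 against 7815, 8132 and 8029 (log2 change -0.55 ± 0.07, adjusted p = 1.35e-05). In both every library without histidine lay below every one at 12.5%. HES1, the classical target, held 1206, 1422 and 1426 against 930.4, 1021 and 961 and rose (log2 change 0.47 ± 0.09, adjusted p = 0.000923), and NOTCH1 did not pass (0.02, adjusted p = 0.935). NOTCH3 fell (-0.49, adjusted p = 0.0167), with 0.0599 without no-histidine replicate 3 and 0.0800 without 12.5% replicate 2. The number of falls was 2 without no-histidine replicate 3, 3 without 12.5% replicate 2 and 5 or 6 without any of the other 4. MYC, which NOTCH1 drives in this leukaemia, was at 14174, 16061 and 16342 against 13216, 13570 and 13257 and missed the threshold (log2 change 0.22 ± 0.08, adjusted p = 0.0671).

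The partners of MYC shifted among themselves. Of 10 tested members of the MYC and MAX network 4 rose and 2 fell. MXD3, a MAX partner of dividing cells, held 406, 533 and 463 normalized counts without histidine and 846, 1018 and 1167 at 12.5% (log2 change -1.11 ± 0.13, adjusted p = 2.52e-06). MNT and MXD1, repressors that compete with MYC for MAX, held 1125, 1124 and 1210 against 855, 775 and 816 (log2 change 0.50 ± 0.10, adjusted p = 0.0013) and 1353, 1189 and 1168 against 994, 870.2 and 883 (log2 change 0.43 ± 0.10, adjusted p = 0.00572). All 3 had no overlap, MXD3 lower and the other two higher without histidine. The rises of the network numbered 2 without no-histidine replicate 2 or 12.5% replicate 1. MGA also fell (-0.63, adjusted p = 0.0291), with 0.0577 and 0.224 without no-histidine replicates 2 and 3 and 0.116 and 0.0566 without 12.5% replicates 1 and 2.

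Of 34 tested FOXO factors and quiescence genes 2 rose and 4 fell, beside 7.00% and 8.26% of all genes tested. The list median was -0.02. ARRDC3, an alpha-arrestin, stood at 4312, 3484 and 3741 normalized counts without histidine and at 1515, 1223 and 1300 at 12.5% (log2 change 1.51 ± 0.12, adjusted p = 4.96e-09), with 332 ± 33.6 (SD, n = 3) at 100%. It was thus higher at 12.5% than at 100% and higher again without histidine. Its relative TXNIP, an inhibitor of glucose uptake, was at 5153, 5088 and 5314 against 4787, 4785 and 5376 (log2 change 0.06 ± 0.11, adjusted p = 0.795) and 2187 ± 35.0 at 100%, so it was high in both low media and did not pass between them. CCNG2, a cyclin of arrested cells, held 998, 1056 and 943 against 1313, 1407 and 1704 (log2 change -0.55 ± 0.10, adjusted p = 0.000327), with 911 ± 79.4 at 100%. The FOXO element GTAAACA, on either strand, was in 5 of 30 promoters of the list (16.7%) and in 3.41% of all promoters, and in none of the 5 members past the threshold that had a promoter.

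Signalling genes were mixed. Of 21 immediate-early genes 4 rose, led by JUNB at 1343, 1386 and 1395 normalized counts against 814, 906 and 941 (log2 change 0.63 ± 0.10, adjusted p = 8.32e-05), and SRF, the serum response factor, held 2388, 2818 and 2634 against 1886, 2116 and 1945 (log2 change 0.40 ± 0.09, adjusted p = 0.00517). Of 18 NF-kB factors and targets 2 rose and 3 fell, beside 7.00% and 8.26% of all genes tested. IER3, a survival gene, held 988, 1229 and 1117 against 625, 525 and 551 (log2 change 0.97 ± 0.20, adjusted p = 0.00192), with 203 ± 24.8 (SD, n = 3) at 100%, and CD83 held 134, 148 and 127 against 182, 217 and 228 (log2 change -0.61 ± 0.13, adjusted p = 0.00262). Each of these 4 genes separated the groups. The rises of immediate-early genes numbered 2 without no-histidine replicate 2 or 3, and the falls of the NF-kB list 1 without no-histidine replicate 3 or 12.5% replicate 1. Of 36 interferon response genes 5 fell and 1 rose, beside 8.26% falls among all genes tested, with a median of -0.03. BST2, the restriction factor tetherin, held 1215, 1641 and 1816 against 758, 769.9 and 987 and rose (log2 change 0.88 ± 0.15, adjusted p = 0.000213), while GBP1 held 509.8, 556 and 488 against 729.5, 873 and 738 and the RNA sensor IFIH1 held 374, 332 and 311 against 532, 476 and 459, both falls (-0.59 and -0.53). The falls of this list numbered 3 without no-histidine replicate 3 or 12.5% replicate 2 or 3.

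Set beside 100% histidine, the gene groups differed in where along the series their levels moved. The values that follow are medians of the list members' changes against 100% on day 6, first at 12.5% and then without histidine, and both use the same 100% libraries. For G2 and mitosis they were -0.23 and -1.24, for G1/S and replication -0.56 and -1.21, for homologous recombination -0.51 and -1.31 and for the GIMAP family -0.28 and -0.83. In these 4 lists the median without histidine was the one further from 0. For cholesterol synthesis they were -1.18 and -0.95 and for fatty acid synthesis -0.40 and -0.63. For ribosomal proteins they were -0.42 and 0.14 and for histones -1.22 and -0.28. For protein folding in the endoplasmic reticulum they were -0.31 and -0.04. In the ribosomal protein, histone and folding lists the median without histidine was the one nearer to 0. The 100% libraries held 5.8S rRNA at 153, 406 and 1181, against 74.8 to 88.2 at 12.5% and 119.6 to 242 without histidine. Its part in the histone medians against 100% was not tested. Single genes did not all follow their lists. MKI67 differed in sign from its list median at 12.5%, and H2BC5, unlike the histone median, was further from 0 without histidine. MKI67 was changed by 0.41 at 12.5% and by -1.32 without histidine, MCM2 by -1.66 and -1.85, SCD by -1.91 and -2.18, DDIT3 by -0.77 and 0.05, RRAGC by 0.02 and 0.78, and H2BC5 by 0.05 and 1.67.

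**Figure D4:**
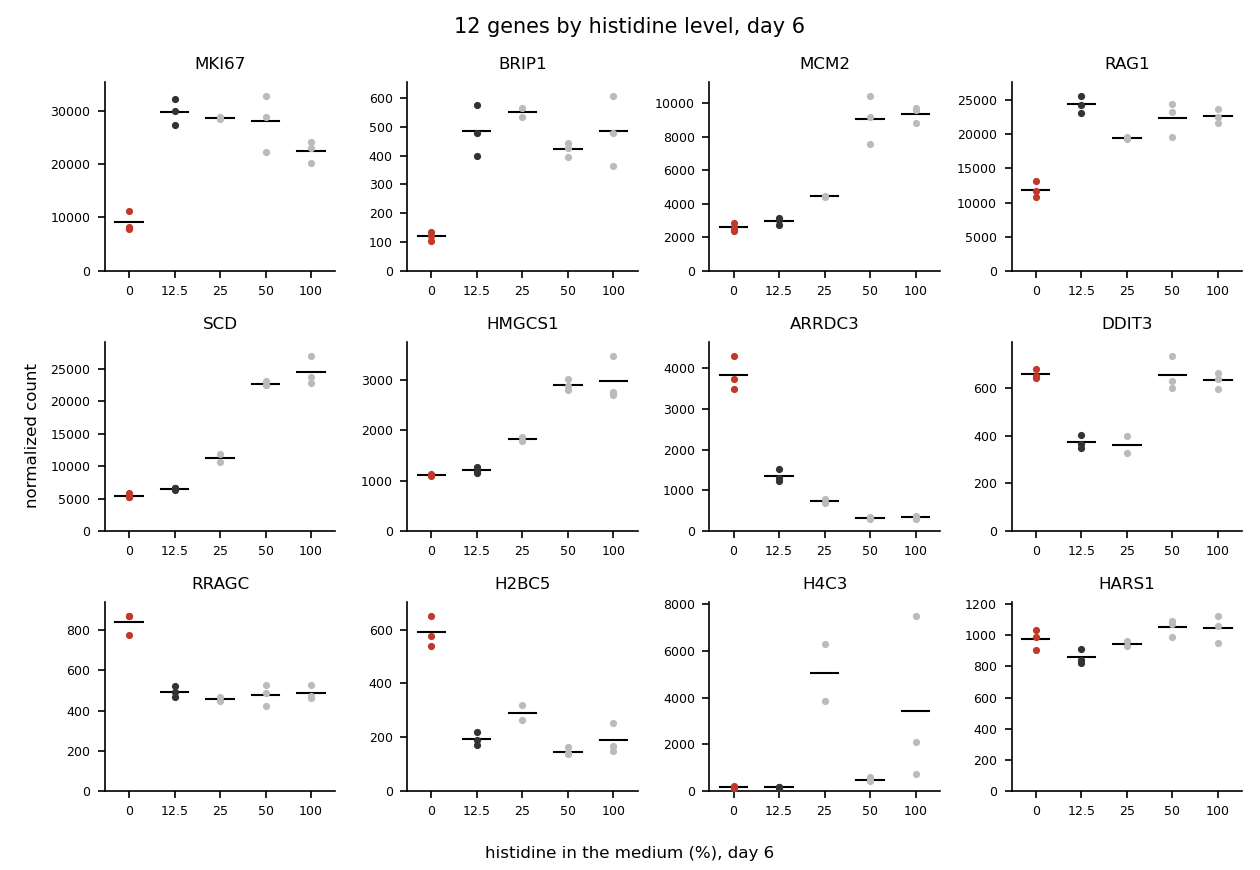
Normalized counts (y axis, from 0) of 12 genes on day 6 at 0, 12.5, 25, 50 and 100% histidine (x axis); points are libraries, bars are group means, and the compared groups are red and black. MKI67, BRIP1 and RAG1 are low only without histidine, MCM2, SCD and HMGCS1 are low at both of the lowest levels, and RRAGC and H2BC5 are high only without histidine. SCD is also lower at 25% than at 100%.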

How the data were processed

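RNA from DND-41 cells in graded histidine was, per the labels' protocols, made into strand-specific libraries from total RNA. The deposited file holds signal values. These are counts per gene after size-factor normalization by the authors with DESeq2 1.44.0. Per the submitters' processing notes, kallisto 0.50.1, FastQC 0.11.9 and the build GRCh38 were also used. The annotation release and strand setting were not given in the sources used here. Of 31919 genes 9278 carry an Ensembl ID alone. Size factors hide a change of total RNA in a cell, and near-identical copies share reads. Reads could not be recovered: among values under 20, only 37.8% to 76.1% came within 0.05 of a whole multiple of each library's best step. Only library totals of normalized counts therefore stand for depth.

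Genes with at least 10 in at least 2 of 25 libraries were kept (18799). Their log2 values, with a pseudocount of 1, entered limma 3.58.1 (R 4.3.3) as 9 groups with 16 residual degrees of freedom and a trended prior, which gave a median standard error of 0.22. P-values are two-sided and Benjamini-Hochberg adjusted, with a threshold of 0.05. The code was tested on simulated data. By rule the text names the 12 largest rises and the 12 largest falls that passed, with no overlap, a symbol and a higher group mean of 50 or more, up to 4 members of each of 47 lists, and a fixed set. Members named beyond this rule were chosen after their values were seen. The comparison and the lists were chosen with earlier results of these data known. The series text and the sample labels differ in the days they name, and the days here follow the sample titles. Alternatives were other pseudocounts, filters and scalings, estimated library weights, no mean trend, smaller sets of libraries, a replicate block, covariates for keratins and 5.8S rRNA, removal of a length and GC trend and leaving out each library. Lengths and GC are of the longest GENCODE 29 transcript, known for 93.7% of the genes tested. Promoters are from RefSeq on GRCh38.p14. Figures were drawn with matplotlib in Python.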

Additional observations from a re-analysis of the deposited data

How the results depend on the processing

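The count of genes that passed, 2869 (1316 rises and 1553 falls), was within 1.5 times of itself under the other pseudocounts, filters and scalings, the covariates and the day 6 libraries alone. With estimated library weights it was 4967 (2509 rises, 2458 falls), and with only the 6 compared libraries, which leaves fewer residual degrees of freedom, 1184 (445 rises, 739 falls). Leaving out 1 library gave 1750 to 3309 genes, 644 to 1678 rises and 1093 to 1631 falls. The share of rises among the calls, 45.9%, was 46.1% with upper-quartile rescaling and 49.3% with quantile normalization.

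With the replicate block within each day 2882 genes passed, 1305 up and 1577 down. The numbers did not pair the libraries, since same-numbered libraries of the 2 groups deviated together at 0.0626, -0.0327 and 0.0274, and the block ended the calls of SC5D, LARS2, MARS2, BID and LCK among the named genes.

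Of the values of named genes under alternatives 3210 kept direction and side of the threshold, 377 lost it, 15 gained it and 10 changed sign. Of the list values 2542 stayed within the spread, 409 moved and 4 changed sign. The changes of sign were in genes not past the threshold and in 1 list median. H4C3 became -0.18 with the keratin covariate, -0.91 with the 5.8S rRNA covariate and -0.13 with the length and GC trend removed, and ranged from -0.24 to 0.19 when a library was left out. CCND2 became 0.092 with library weights and ranged from -0.97 to 0.52. ASNS ranged from -0.68 to 0.26. SLC7A11 became -0.0081 with the 5.8S rRNA covariate and CHAC1 -0.049 with the length and GC trend removed. The median of the serine and one-carbon list became 0.049 with library weights and 0.0062 with the keratin covariate, and ranged from -0.17 to 0.12. The cause of these changes was not tested. The unknown read depth limits what can be said of genes under about 50 normalized counts.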
